A study of Mus musculus with 16 samples.

Results

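The transcriptional repressor gene Bcl6 and the genes of the corepressors and deacetylases that act with it were followed through 16 RNA-seq libraries of mouse germinal centre B cells. The set holds the 9 genes Bcl6, Ncor1, Hdac3, Tbl1xr1, Bcor, Hdac1, Hdac2, Hdac7 and Hdac9. They were chosen by name out of 48593 genes in the count table, and all 9 were among the 16606 genes that passed the filter on low counts.

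The study profiled germinal centre B cells of mice in which Crebbp, the gene of a histone acetyltransferase, was either deleted or carried an R14467H knock-in, spelled here as the series title spells it. The title describes both alleles as conditional and specific to the germinal centre, and the labels name neither the Cre driver nor the ages of the mice, nor whether a library came from 1 mouse. In the KO cohort there were 3 libraries of Crebbp-WT mice (KO cohort WT) and 3 of homozygous Crebbp-KO mice (KO). In the RH cohort there were 3 libraries of wild type mice (RH cohort WT), 4 of Crebbp-RH/WT mice (RH HET) and 3 of Crebbp-RH/RH mice (RH HOMO). In all 5 groups the mice had been given sheep red blood cells, with splenic cells taken 12 days later by the protocol and 10 days later by a sample tag, enriched for B cells with a kit and sorted as B220+ PNA+ CD95+. For the library RH cohort WT 1 the title and the batch tag name different cohorts. The groups follow the titles. P-values measure the spread between libraries, since nothing in the labels says that replicates came from separate mice.

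BCL6 is a zinc finger repressor that germinal centre B cells need in order to form and persist. Its BTB domain recruits the corepressor NCoR, whose core complex holds the deacetylase HDAC3 and the WD40 protein TBL1XR1, or recruits BCOR, which belongs to a Polycomb-type complex. By removing acetyl groups from histones at enhancers the NCoR and HDAC3 complex opposes CREBBP, which adds them, and CREBBP can also acetylate BCL6 itself. HDAC1 and HDAC2 are the catalytic subunits of the NuRD, SIN3 and CoREST complexes. HDAC7 and HDAC9 are class IIa deacetylases, which have little catalytic activity of their own and act as scaffolds between transcription factors such as MEF2 proteins and the NCoR and HDAC3 complex.

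None of the 9 genes passed the test in any of the 3 genotype comparisons. The largest difference in the knockout was in Tbl1xr1, at 148.4 ± 6.86 CPM (SD, n = 3) in KO against 192.5 ± 4.74 in KO cohort WT, with no overlap between the libraries. The largest difference in RH HOMO with an interval that excluded 0 was in Hdac7, at 193.1 ± 7.13 CPM against 232.5 ± 6.98 in RH cohort WT, again with no overlap. Bcl6 was at 530 ± 15.4 CPM in KO and 500.9 ± 28.2 in its wild type, and at 426.7 ± 63.7 in RH HOMO and 472.3 ± 26.1 in RH cohort WT. CPM are the usual library-scaled counts of a gene, on library sizes scaled by the trimmed mean of M values, and a gene passed where edgeR's quasi-likelihood test gave a Benjamini-Hochberg adjusted p under 0.05 over all tested genes.

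Promoter windows are shown for Bcl6, Ncor1, Tbl1xr1 and Hdac7. BCL6 is known to repress its own gene and CREBBP is named for binding the factor CREB, so sites of both were searched. For Ncor1 and Hdac7 only the window with the most matches is shown. The windows run from 250 bases before to 50 bases after an annotated start in RefSeq (GRCm38.p6), written 5′ to 3′ along the gene, so that the start is the first base after those 250. Capitals mark TTCNNNGAA, the core shared by BCL6 and STAT sites, and TGACG, the shorter core of a CREB site, both searched on both strands; the reverse complement of TTCNNNGAA is the same pattern.
Bcl6, inner start, chr16:23981234-23981533, minus strand: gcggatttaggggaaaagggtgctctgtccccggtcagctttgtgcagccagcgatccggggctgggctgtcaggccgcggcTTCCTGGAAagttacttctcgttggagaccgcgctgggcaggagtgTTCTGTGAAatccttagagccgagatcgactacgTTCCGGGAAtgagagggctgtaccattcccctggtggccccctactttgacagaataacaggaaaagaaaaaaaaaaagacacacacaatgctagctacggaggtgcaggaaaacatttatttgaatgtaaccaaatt
Bcl6, outer start, chr16:23988803-23989102, minus strand: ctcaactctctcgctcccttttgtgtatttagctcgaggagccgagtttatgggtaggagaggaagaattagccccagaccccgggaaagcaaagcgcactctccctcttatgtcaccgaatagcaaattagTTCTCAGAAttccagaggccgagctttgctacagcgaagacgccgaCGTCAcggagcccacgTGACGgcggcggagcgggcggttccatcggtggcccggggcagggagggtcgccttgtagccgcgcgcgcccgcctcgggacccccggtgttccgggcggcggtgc
Ncor1, inner start, chr11:62438466-62438765, minus strand: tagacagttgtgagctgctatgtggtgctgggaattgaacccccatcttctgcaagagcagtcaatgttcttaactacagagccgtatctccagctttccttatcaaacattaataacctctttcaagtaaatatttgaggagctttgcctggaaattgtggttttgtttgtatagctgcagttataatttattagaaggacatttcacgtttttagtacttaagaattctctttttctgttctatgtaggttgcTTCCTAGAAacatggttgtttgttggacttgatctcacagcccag
Tbl1xr1, chr3:22076402-22076701, plus strand: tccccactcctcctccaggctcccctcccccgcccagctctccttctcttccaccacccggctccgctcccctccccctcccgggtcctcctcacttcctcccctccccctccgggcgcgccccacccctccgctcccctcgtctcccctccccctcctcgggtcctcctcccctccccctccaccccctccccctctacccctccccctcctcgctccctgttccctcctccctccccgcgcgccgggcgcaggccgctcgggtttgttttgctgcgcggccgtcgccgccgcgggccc
Hdac7, chr15:97831718-97832017, minus strand: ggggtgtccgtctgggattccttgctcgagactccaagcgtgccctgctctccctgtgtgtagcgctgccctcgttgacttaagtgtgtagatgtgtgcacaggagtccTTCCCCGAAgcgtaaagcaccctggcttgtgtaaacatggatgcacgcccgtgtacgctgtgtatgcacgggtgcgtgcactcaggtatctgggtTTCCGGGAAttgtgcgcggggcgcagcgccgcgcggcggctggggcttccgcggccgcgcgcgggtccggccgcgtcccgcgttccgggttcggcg
The inner Bcl6 window held 3 matches to TTCNNNGAA, with first bases at 83, 129 and 163 counted from the window's 5′ end. The outer Bcl6 window held 1 such match, at 133, and 2 matches to TGACG, at 179 and 195. The inner Ncor1 window held the longer BCL6 site TTCCTAGAA at base 256, which lies 5 bases after the start. The Hdac7 window held matches to TTCNNNGAA at 110 and 205, and the Tbl1xr1 window held no match to any of these patterns. The other of the 2 Ncor1 windows and 2 of the 4 Hdac7 windows held none either. The remaining Hdac7 window, chr15:97814814-97815113, held 1 match to TTCNNNGAA, at 29. The 2 overlapping Bcor windows held 1 each, at 138 and 147. Over all 32851 windows of this length, TTCNNNGAA was found in 8.3%, TTCCTAGAA in 0.411%, TGACG in 20.8% and the full CREB site TGACGTCA in 1.79%. These are matches of letters only. Windows were also in use for further starts of these genes and for Bcor, Hdac2 and Hdac9. None of the 14 windows of these 7 genes held TGACGTCA. No window of Hdac1 or Hdac3 was in use here, so these members were not searched.

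The libraries held 41362856 to 93040297 counts, and a member held 2418 to 49197 counts in a library. The germinal centre B cell markers, among them S1pr2 and Fas, summed to 6060 to 7370 CPM. By group the sums were 6740 to 7370 in KO cohort WT and 6060 to 6440 in KO, with no overlap. They were 6480 to 6980 in RH cohort WT, 6590 to 7060 in RH HET and 6540 to 6660 in RH HOMO. The 13 T cell markers, which matter because T follicular helper cells also carry Bcl6, summed to 14.8 to 26.7 CPM, of which Cd247 made up 7.34 to 22.4; Cd3d, Cd3e, Cd3g, Cd8a, Cd8b1 and Icos each had libraries at 0 and reached at most 0.314 CPM. Of the markers, Rgs13 (log2 -1.58, adjusted p = 0.00223, edgeR) and Flt3 (-0.51, adjusted p = 0.0473) fell and Car2 rose (adjusted p = 0.0345) in KO, and Thy1 rose in RH HOMO (2.16, adjusted p = 0.0282; 0.3001 ± 0.111 to 1.324 ± 0.47 CPM). Their part in the members' values was not tested. Markers of macrophages summed to 14.8 to 31.3 CPM, those of dendritic cells to 35.3 to 59.5, those of naive follicular B cells to 632 to 860, those of plasma cells to 794 to 942 and those of erythroid cells to 7.68 to 16.1. Few genes held most of these sums. Flt3 was at 34.2 to 56.5 CPM, Fcer2a at 186 to 312 and Cxcr5 at 212 to 299. Among the plasma cell markers, Jchain was at 388 to 532 CPM, Slamf7 at 220 to 383 and Xbp1 at 113 to 152. Sdc1 reached at most 2.15 CPM, Prdm1 7.4 and Tnfrsf17 0.373. Crebbp was counted at 131, 127 and 149 CPM in KO cohort WT and 123, 137 and 108 in KO, a log2 difference of -0.14 ± 0.17 (SE; adjusted p = 0.826, edgeR). No label says which exons the deletion removes, so this count over the whole gene does not check the labels. RH HOMO 2 and RH cohort WT 1 stood apart from the others on the first principal component, at 77.1 and 50.7 against -40.7 to 24.3 for the rest. Ribosomal protein genes took 8.89% of the counts in RH HOMO 2 and 3.77% to 6.94% in the other libraries. Mitochondrially encoded genes took 7.34% and 7.15% in RH cohort WT 1 and 2 and 3.43% to 5.84% in the other libraries.

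Libraries of the RH cohort differed by the length of the genes, RH HOMO 2 the most. Spearman's rho across genes between exon length and deviation from the median library was -0.27 in RH HOMO 2, -0.20 in RH HET 2, -0.16 in RH cohort WT 1 and 2, -0.13 in RH HOMO 1, and 0.02 to 0.17 in the other libraries. Over 16461 genes the log2 CPM of RH HOMO 2 lay a median -0.28 from the median library for genes over 6000 exon bases and 0.23 for genes under 2000. All 6 members over 6000 exon bases were below their median there, and all 3 shorter ones were above it. It was the lowest library for 5 members, Bcl6, Ncor1, Tbl1xr1, Bcor and Hdac9. The part of gene length in the differences of RH HOMO was not tested. The members' differences without this library are given below, each with its comparison. Deacetylase shares, marker values, and the medians and genes that did not pass of the other lists include it in RH HOMO.

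**Figure D1:**
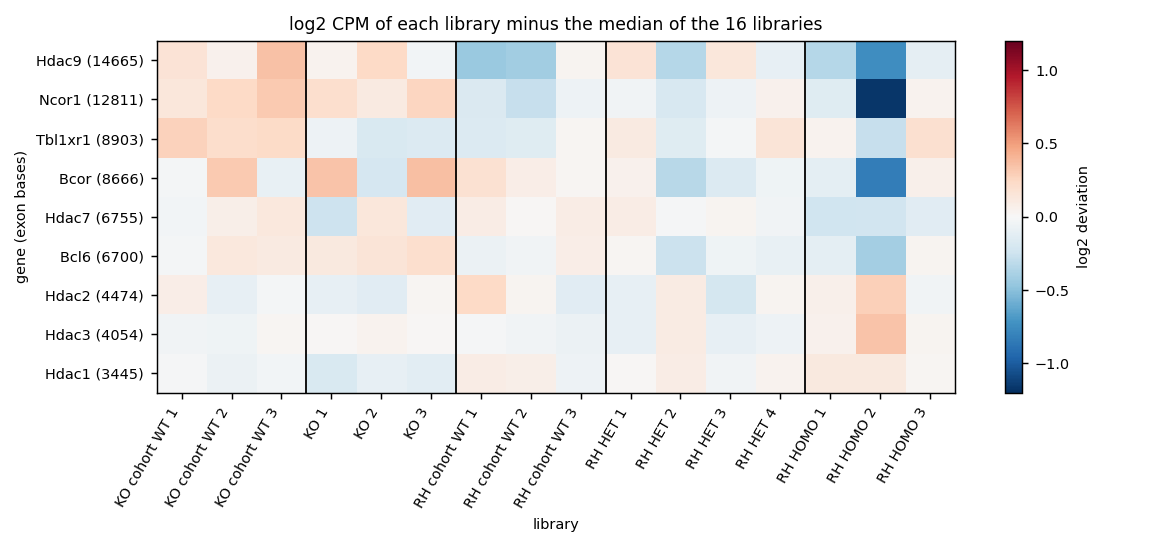
Colours show the log2 CPM of each of the 9 genes (rows) in each of the 16 libraries (columns) minus the median of the 16 libraries for that gene. RH HOMO 2 holds the lowest values of 5 genes, and KO cohort WT libraries hold the highest Tbl1xr1 values.

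Read against exon length, as RPKM (CPM divided by the exon length in kilobases), Hdac1 and Bcl6 were the most abundant members in every group. Over the 6 wild type libraries the mean level was 91.2 RPKM for Hdac1 and 72.6 for Bcl6, above 97.0% and 96.0% of the tested genes. Hdac7 (34.4) and Ncor1 (32.0) came next. Hdac3 (21.0), Tbl1xr1 (19.4), Hdac2 (19.0) and Bcor (18.6) lay close together. Hdac9 was last at 5.82 RPKM, above 58.0% of the tested genes. With the longest transcript as the length, levels were higher, at 120 against 70.7 RPKM for Bcl6 over all libraries. Hdac1 and Bcl6 stayed highest and Hdac9 lowest. Ncor1 was then at 51.6 in KO cohort WT and 39.2 in RH cohort WT, and Hdac7 at 44.7 and 44.9, so their order depended on the group.

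The order was nearly the same in each group. Hdac1 was above Bcl6 throughout, and the libraries of both overlapped only in KO, where the means were 82.8 and 79.1 RPKM. Ncor1 and Hdac7 overlapped in every group but RH cohort WT, where Hdac7 at 34.4 was above Ncor1 at 27.6. Tbl1xr1 was the 5th of 9 in KO cohort WT at 21.6 RPKM and the 8th in KO at 16.7, where its libraries overlapped those of Hdac2 at 17.8. Hdac9 was the last in all 5 groups with no overlap.

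**Figure D2:**
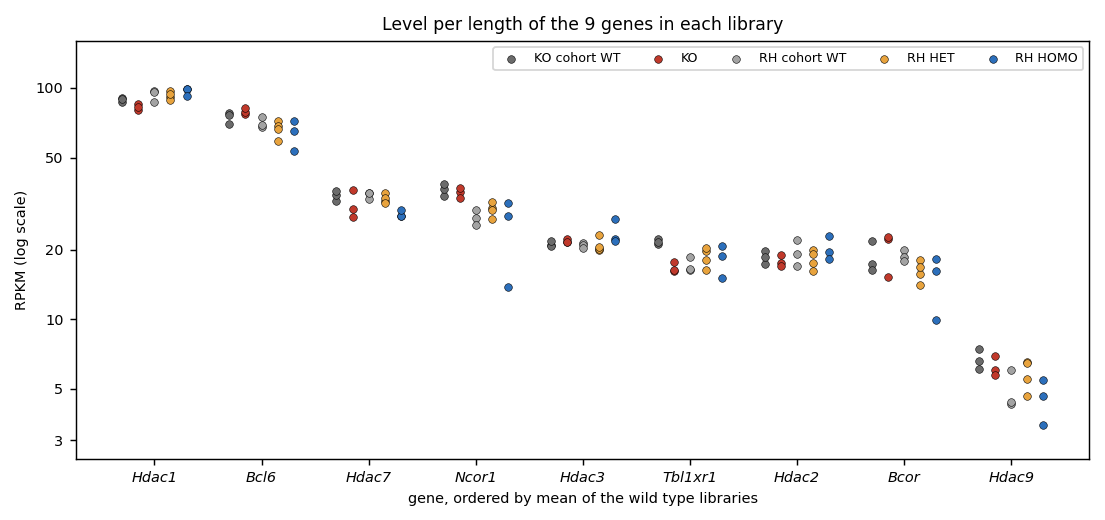
Points are the RPKM of each gene in each library on a log axis, coloured by group, with genes ordered by their mean over the wild type libraries. Hdac1 and Bcl6 lie at the top in every group and Hdac9 at the bottom.

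Bcl6 (chromosome 16, 23965052 to 23988852, minus strand, GRCm38) encodes the repressor itself. Its libraries read 468, 520 and 514 CPM in KO cohort WT and 516, 527 and 547 in KO. In the RH cohort they read 453, 462 and 502 CPM in wild type, 483, 397, 458 and 447 in RH HET, and 437, 358 and 484 in RH HOMO. The groups overlapped in each comparison. The log2 difference was 0.08 ± 0.11 in KO (95% interval -0.14 to 0.30; adjusted p = 0.851, edgeR), -0.08 ± 0.10 in RH HET (-0.29 to 0.13; adjusted p = 0.86) and -0.15 ± 0.11 in RH HOMO (-0.37 to 0.08; adjusted p = 0.616). Without RH HOMO 2, which had the lowest Bcl6 level, the last was -0.04. In these bulk libraries, fewer cells of a type and less RNA per cell cannot be told apart.

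**Figure D3:**
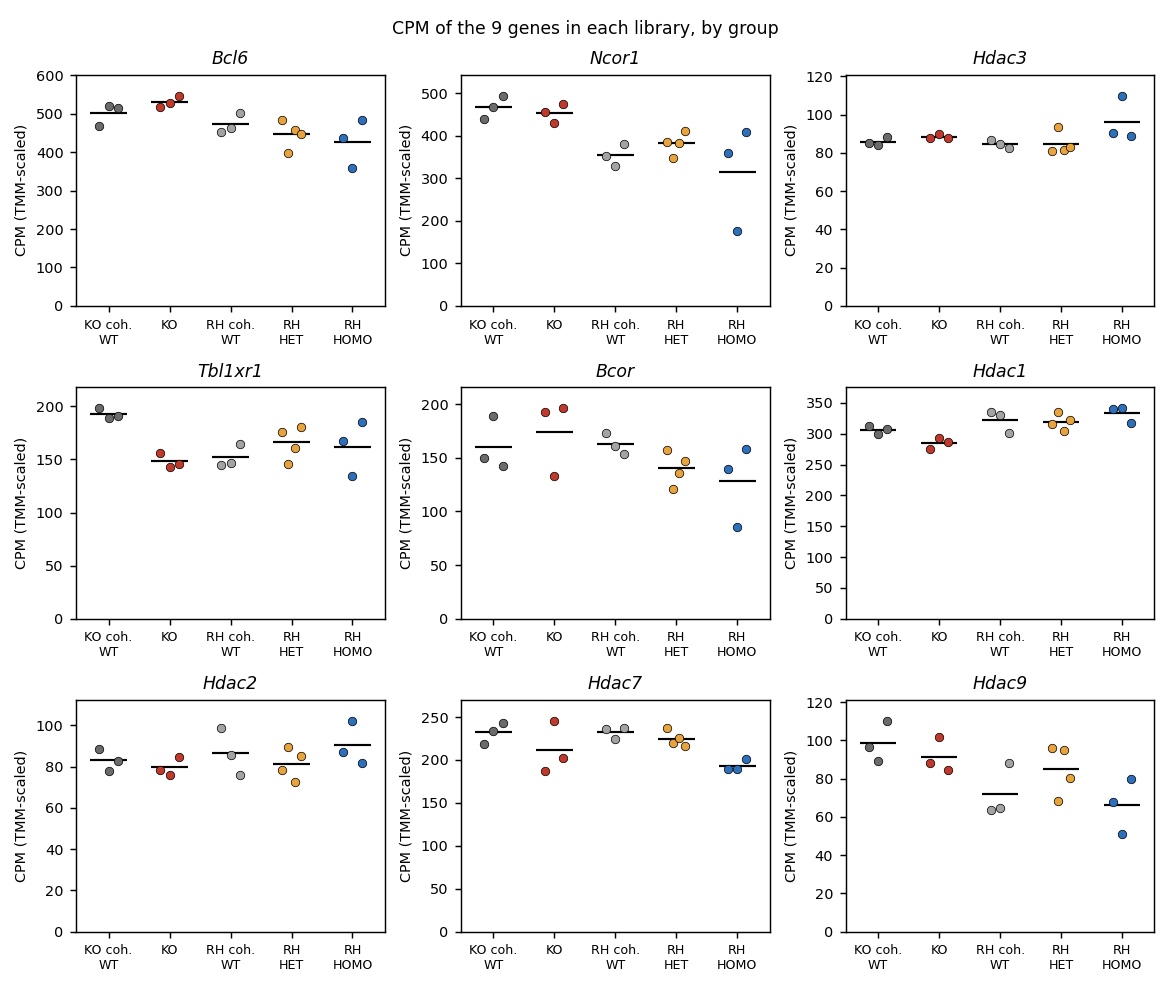
Each panel shows 1 gene, with a point for the CPM of each library, by group, on an axis from 0, and a bar for the group mean. Tbl1xr1 is lower in all 3 KO libraries than in KO cohort WT, and Hdac7 is lower in all 3 RH HOMO libraries than in RH cohort WT.

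Of the NCoR and HDAC3 complex, Tbl1xr1 had the clearest difference. Tbl1xr1 (chromosome 3, 22076652 to 22216594, plus strand) encodes the subunit that helps exchange corepressors for coactivators. It was counted at 198, 189 and 191 CPM in KO cohort WT and at 156, 143 and 146 in KO. The highest KO library was below the lowest wild type library. The log2 difference was -0.38 ± 0.11 (95% interval -0.60 to -0.15). It did not pass (adjusted p = 0.109, edgeR), but passed with DESeq2 (-0.38, adjusted p = 0.0436) and with limma-voom (-0.39, adjusted p = 0.00414). In the RH cohort it read 145, 147 and 165 CPM in wild type, 176, 146, 161 and 181 in RH HET, and 167, 134 and 185 in RH HOMO. The RH groups overlapped, with log2 differences of 0.12 ± 0.10 (adjusted p = 0.801) and 0.09 ± 0.11 (adjusted p = 0.793). The RH HOMO difference was 0.21 without RH HOMO 2 (adjusted p = 0.331).

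The KO cohort WT libraries were the highest of all for Tbl1xr1. Against RH cohort WT the log2 difference of the wild types was -0.34 ± 0.11 (95% interval -0.56 to -0.11; adjusted p = 0.0684, edgeR). With all 6 wild type libraries as 1 control group, the knockout difference was -0.22 (adjusted p = 0.448), and with RH cohort WT 1 placed in the KO cohort, as its batch tag has it, the difference was -0.28 (adjusted p = 0.363).

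Ncor1 (chromosome 11, 62316426 to 62458541, minus strand), the scaffold of the complex, read 438, 468 and 494 CPM in KO cohort WT and 455, 430 and 475 in KO. It read 352, 328 and 381 CPM in RH cohort WT, 386, 348, 382 and 411 in RH HET, and 359, 176 and 409 in RH HOMO. The groups overlapped in each comparison. The log2 differences were -0.04 ± 0.19, 0.11 ± 0.18 and -0.17 ± 0.19, with adjusted p = 0.961, 0.904 and 0.781 (edgeR). RH HOMO 2 decided the sign of the last, which was 0.12 without it. Ncor1 had the widest spread within groups of the 9 genes, a pooled SD of 0.291 on the log2 scale, and 0.098 without RH HOMO 2.

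Hdac3 (chromosome 18, 37935844 to 37955016, minus strand), the catalytic subunit, had little spread. It read 85.0, 84.1 and 88.4 CPM in KO cohort WT and 87.7, 89.9 and 87.7 in KO, with a log2 difference of 0.04 ± 0.09 (adjusted p = 0.915, edgeR). It read 86.6, 84.8 and 82.8 in RH cohort WT, 81.2, 93.4, 81.3 and 83.3 in RH HET, and 90.2, 110 and 88.7 in RH HOMO. The RH HOMO libraries were all above their wild type, but the difference of 0.19 ± 0.09 did not pass (95% interval 0.00 to 0.38; adjusted p = 0.397) and was 0.08 without RH HOMO 2. The RH HET difference was 0.00 ± 0.08.

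Bcor (chromosome X, 12036740 to 12160355, minus strand), the corepressor that carries a Polycomb-type complex to BCL6, read 150, 189 and 142 CPM in KO cohort WT and 193, 133 and 196 in KO. It read 173, 161 and 154 CPM in RH cohort WT, 157, 121, 136 and 147 in RH HET, and 140, 85.9 and 158 in RH HOMO. All comparisons overlapped. The log2 differences were 0.11 ± 0.19, -0.21 ± 0.17 and -0.34 ± 0.19 (adjusted p = 0.884, 0.801 and 0.472, edgeR), and the last was -0.12 without RH HOMO 2. The interval of the last ran from -0.74 to 0.05, the widest reach below 0 among the members. Since Bcor is X-linked, its levels were set beside Xist. The 7 libraries with more than 1000 Xist counts read 140 to 193 CPM, and the other 9 read 85.9 to 196.

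Hdac1 (chromosome 4, 129516104 to 129542713, minus strand) and Hdac2 (chromosome 10, 36974544 to 37001889, plus strand) are the class I deacetylases of NuRD, SIN3 and CoREST. Hdac1 had the smallest spread of all 9 genes, a pooled SD of 0.056 on the log2 scale. It read 312, 300 and 307 CPM in KO cohort WT and 276, 293 and 286 in KO. The groups did not overlap, but the log2 difference of -0.10 ± 0.08 did not pass (95% interval -0.26 to 0.06; adjusted p = 0.666, edgeR). In the RH cohort it read 335, 330 and 301 CPM in wild type, 316, 335, 305 and 323 in RH HET, and 340, 341 and 318 in RH HOMO, with log2 differences of -0.01 ± 0.07 and 0.05 ± 0.08 (0.03 without RH HOMO 2). These overlapped.

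Hdac2 read 88.6, 77.9 and 82.7 CPM in KO cohort WT and 78.3, 76.2 and 84.9 in KO. It read 98.8, 85.7 and 76.1 in RH cohort WT, 78.4, 89.5, 72.4 and 85.3 in RH HET, and 87.3, 102 and 81.6 in RH HOMO. The groups overlapped in each comparison, and the differences were -0.06 ± 0.11, -0.09 ± 0.10 and 0.06 ± 0.11. The last was -0.04 without RH HOMO 2.

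Hdac7 (chromosome 15, 97792664 to 97844502, minus strand), a class IIa deacetylase with a known role in early B cell development, had the clearest difference in the homozygous knock-in. It read 236, 224 and 237 CPM in RH cohort WT, 237, 220, 226 and 216 in RH HET, and 189, 189 and 201 in RH HOMO. The RH HOMO libraries were below every RH cohort WT and RH HET library. The log2 difference from wild type was -0.27 ± 0.09 (95% interval -0.46 to -0.08), which did not pass (adjusted p = 0.172, edgeR), and was -0.25 without RH HOMO 2. With limma-voom it was -0.26 (adjusted p = 0.0547). RH HET differed from wild type by -0.05 ± 0.08. In the KO cohort Hdac7 read 219, 234 and 243 CPM in wild type and 187, 245 and 202 in KO, which overlapped (-0.13 ± 0.09, adjusted p = 0.629). As a share of the summed RPKM of 11 deacetylase genes, Hdac7 was at 13.5% ± 1.01 in RH HOMO, 16.4% ± 0.75 in RH cohort WT, 15.8% ± 0.873 in RH HET and 17.0% ± 0.867 in KO cohort WT, and ran from 14.6% to 17.7% in KO. Hdac1 held the most, at 42.5% to 45.6% on average.

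Hdac9 (chromosome 12, 34047580 to 34917095, minus strand) read 96.6, 89.5 and 110 CPM in KO cohort WT and 88.4, 102 and 84.3 in KO. It read 63.4, 64.5 and 88.3 CPM in RH cohort WT, 96.3, 68.1, 94.8 and 80.6 in RH HET, and 68.0, 51.2 and 79.7 in RH HOMO. The groups overlapped in each comparison. The log2 differences were -0.11 ± 0.17, 0.24 ± 0.16 and -0.12 ± 0.17, with adjusted p = 0.876, 0.768 and 0.828 (edgeR). The last was 0.03 without RH HOMO 2.

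**Figure D4:**
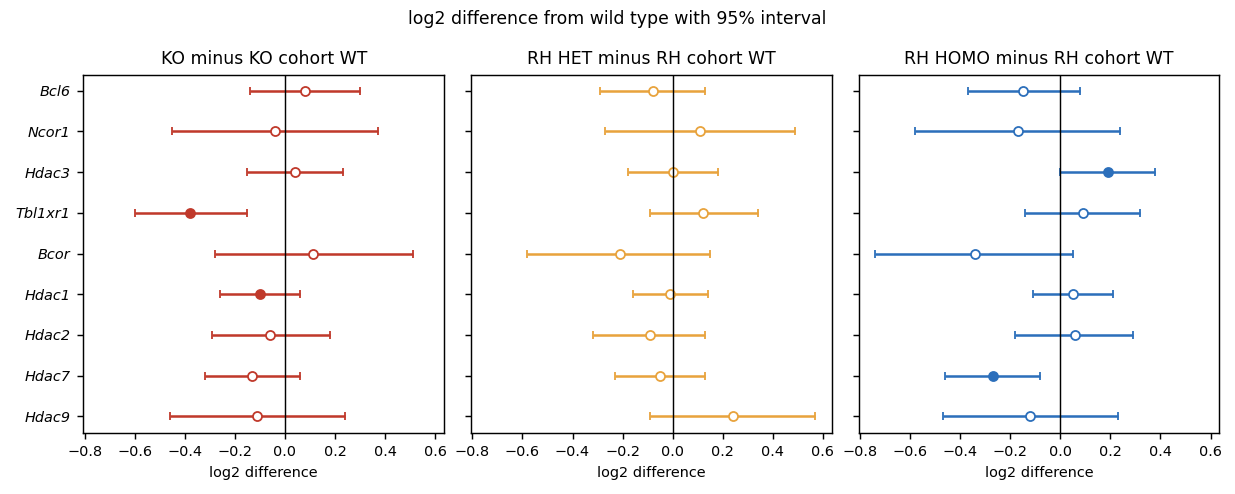
Points are the log2 difference of each gene in each genotype comparison, with lines for the 95% interval, and filled points mark groups whose libraries do not overlap. Only Tbl1xr1 in KO (-0.38) and Hdac7 in RH HOMO (-0.27) have intervals that exclude 0.

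Counted together, 0 of the 27 differences passed, against 1.3% of all tested genes in KO, 0.0181% in RH HET and 1.57% in RH HOMO. By unadjusted p under 0.05, 1 of 9 members was past it in KO (12.1% of all tested genes), 0 in RH HET (7.18%) and 1 in RH HOMO (12.9%). DESeq2 called 1, 0 and 0 members (3.78%, 0.374% and 3.94% of the genes it tested), and limma-voom called 1, 0 and 0 (5.68%, 1.47% and 6.74%). The groups did not overlap for 2 members in KO, Tbl1xr1 and Hdac1, beside 25.4% of all tested genes; for 0 in RH HET, beside 6.49%; and for 2 in RH HOMO, Hdac3 and Hdac7, beside 15.4%. These shares are near the background. Of the 27 differences, 22 were under 0.2 in size and the intervals reached from -0.74 to 0.57. The members' median log2 difference was -0.06 in KO, -0.01 in RH HET and -0.12 in RH HOMO, beside 0, -0.01 and 0.02 for all tested genes. Without RH HOMO 2 the members' median in RH HOMO was 0.03.

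Between RH HOMO and RH HET the largest differences by size were in Hdac9 (-0.36 ± 0.16, adjusted p = 0.421, edgeR), Ncor1 (-0.28 ± 0.18, adjusted p = 0.547) and Hdac7 (-0.22 ± 0.09, adjusted p = 0.399). Without RH HOMO 2 these were -0.21, 0.00 and -0.21, and the difference of Hdac3 went from 0.18 to 0.07. None passed here, beside 0% of all tested genes, and 3 members had an unadjusted p under 0.05 (11.4% of all genes). DESeq2 called 0 (0.789%) and limma-voom 0 (0.536%). Only Hdac7 had groups that did not overlap, beside 8.06% of all genes.

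The difference between the homozygous knock-in's effect and the knockout's effect was tested as an interaction. No member passed, beside 0.241% of all tested genes. By unadjusted p, 1 of 9 had a p under 0.05 (9.53% of all genes). Limma-voom called 1 (3.88%) and DESeq2 0 (1.48%). The largest values by size were in Bcor, -0.46 ± 0.26 (95% interval -1.01 to 0.10; adjusted p = 0.622, edgeR; -0.25 without RH HOMO 2), and in Tbl1xr1. The latter was 0.46 ± 0.15 (95% interval 0.14 to 0.78; adjusted p = 0.269, edgeR), and 0.55 with limma-voom (adjusted p = 0.00792). Without RH HOMO 2 the Tbl1xr1 value was 0.57 (adjusted p = 0.0543), and with a term for the mitochondrial share it was 0.31 (adjusted p = 0.372).

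Between the wild types of both cohorts, members differed by up to -0.45 on the log2 scale. Tbl1xr1 (-0.34), Hdac9 (-0.45 ± 0.17, adjusted p = 0.105) and Ncor1 (-0.40 ± 0.19, adjusted p = 0.207) were lower in RH cohort WT than in KO cohort WT with no overlap, by edgeR. No member passed (5.06% of all tested genes did), 2 had an unadjusted p under 0.05 (25.5%), and 3 did not overlap (34.2%). DESeq2 called 1 (15.4%) and limma-voom 3 (26.2%). With a term for the mitochondrial share the differences of Tbl1xr1, Hdac9 and Ncor1 were -0.11, 0.05 and -0.11, and with RH cohort WT 1 in the KO cohort they were -0.20, -0.22 and -0.29. These are the longest members, at 8903, 14665 and 12811 exon bases. Spearman's rho between exon length and deviation was -0.16, -0.16 and 0.02 in RH cohort WT and 0.05 to 0.14 in KO cohort WT. The part of gene length in these differences was not tested. The cohort and whatever was handled with it cannot be told apart, which is why each genotype is compared within its own cohort.

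The other genes of these pathways were described from lists of NCoR, BCOR, NuRD, CoREST and SIN3 subunits, other deacetylases, sirtuins, genes that BCL6 is known to repress, and regulators of BCL6. In KO and in RH HET none of the tested genes in these lists passed, beside 1.3% and 0.0181% of all tested genes. In RH HOMO, 1 of the 21 tested BCL6-repressed genes rose and 1 of the 14 regulators fell, beside 1.57% of all tested genes called in either direction. Gpr183, a chemotactic receptor for oxysterols, rose from 9.295 ± 1.79 to 17.65 ± 1.71 CPM (log2 0.92 ± 0.22; 95% interval 0.46 to 1.39; adjusted p = 0.0443, edgeR). This call was lost when any of the 6 libraries was left out (0.79 to 1.07, adjusted p 0.0506 to 0.169). Mef2b, which encodes an activator of Bcl6 transcription, fell from 359.5 ± 36.5 to 242.1 ± 12.4 CPM (log2 -0.57 ± 0.11; adjusted p = 0.0143). The Mef2b call was kept in 13 of 19 alternatives. Leaving out RH cohort WT 1 was 1 setting that ended it (-0.49, adjusted p = 0.0662, edgeR). Another was all 6 wild types as 1 control group (-0.33, adjusted p = 0.224, edgeR). With only the libraries compared, 0 of all tested genes were called lower in RH HOMO.

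In KO, the member with the smallest p of each list did not pass. Bcorl1, a paralogue of Bcor, was at 7.716 ± 1.88 against 4.038 ± 0.581 CPM (log2 0.93 ± 0.23, adjusted p = 0.0632, edgeR). Rcor3 of CoREST differed by 0.51 (adjusted p = 0.0859), Bcl2l1, a survival gene, by 0.42 (adjusted p = 0.0716), Hdac6 by 0.27, Sirt6 by 0.35 and Tbl1x by -0.19. In RH HET the corresponding values were -0.14 for Cops2, 0.34 for Bcorl1, -0.51 for Rcor2, 0.10 for Hdac8, 0.25 for Sirt1, 0.48 for Ccr6 and -0.35 for Mef2b. In RH HOMO they were -0.23 for Usp7, -0.27 for Hdac5 and -0.30 for Sirt6. Rcor2 of CoREST was at 2.275 ± 0.295 CPM in RH HOMO against 4.547 ± 0.937 in RH cohort WT (adjusted p = 0.0714).

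**Figure D5:**
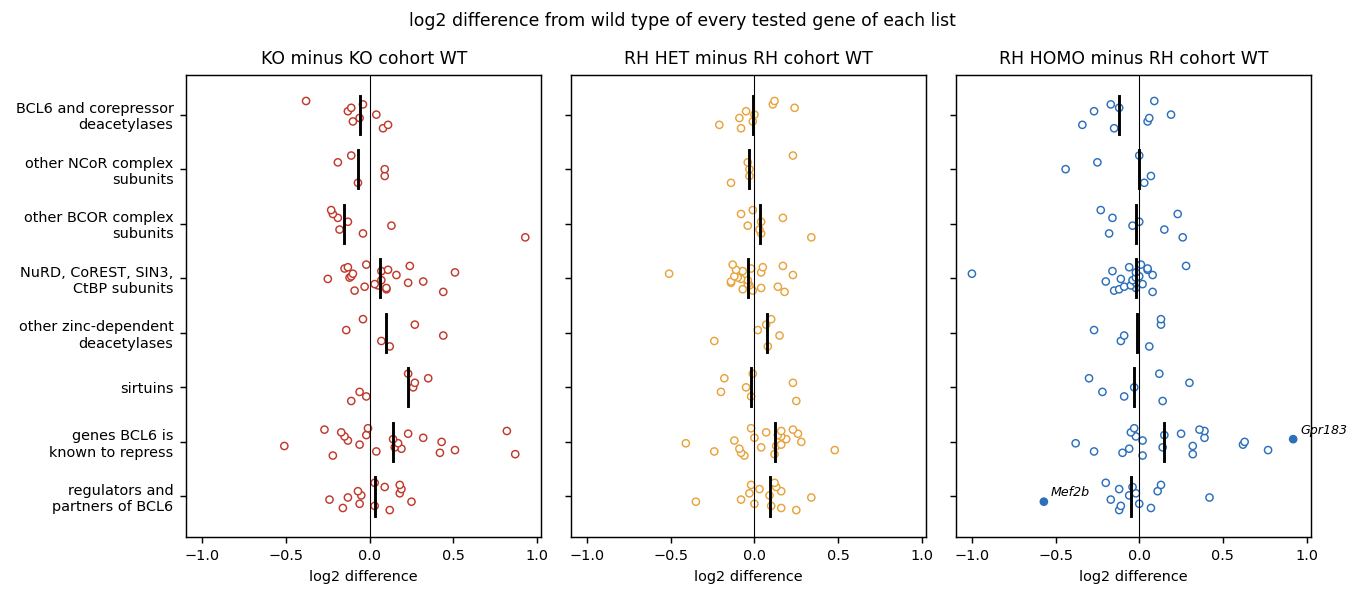
Points are the log2 differences of the tested genes in each list for each genotype comparison, with a black bar for the list's median and filled points for genes that passed. In RH HOMO the filled points of the BCL6 lists are Gpr183 (0.92) and Mef2b (-0.57).

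The list of BCL6-repressed genes had medians of 0.14, 0.12 and 0.15 in KO, RH HET and RH HOMO, beside 0, -0.01 and 0.02 for all tested genes, with 12, 14 and 14 of 21 above 0. The list of regulators had medians of 0.03, 0.09 and -0.05. The list of other NCoR complex subunits had medians of -0.07, -0.03 and 0.00, and that of the other zinc-dependent deacetylases 0.10, 0.08 and -0.01. Medians were -0.16, 0.03 and -0.02 for BCOR complex subunits, 0.06, -0.04 and -0.02 for NuRD, CoREST, SIN3 and CtBP subunits, and 0.23, -0.02 and -0.03 for sirtuins.

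Over the 16 libraries, the genes whose log2 CPM was most like that of Bcl6 included Cux1 (Pearson r = 0.938), Zfr (0.932), Hipk3 (0.931) and Atp2a2 (0.922), among 7315 genes. This is a description over libraries that differ in cohort, length trend and depth, whose part in the correlations was not tested. Over the 14 libraries without RH cohort WT 1 and RH HOMO 2, these 4 ranked 2, 4, 9 and 17. By Spearman's rho over the 16 libraries, Cux1 ranked 65.5, Zfr 5.5, Hipk3 3.5 and Atp2a2 100.5.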

How the data were processed

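RNA was measured in 16 libraries of sorted mouse germinal centre B cells. The authors deposited 1 table of raw counts per gene. Per the submitters' processing notes, reads were processed with CASAVA 1.8, HISAT2 and featureCounts on mm10; the strand setting is not given in the sources used here, so reads of overlapping genes on opposite strands may not be told apart. Neighbours overlap at most 0.64% of the exon bases of a member.

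Counts were tested with edgeR 4.0.16 (R 4.3.3; limma 3.58.1): genes kept by filterByExpr, TMM scaling, 5 group means over all 16 libraries (11 residual degrees of freedom), glmQLFit and glmQLFTest, Benjamini-Hochberg over 16606 genes, threshold 0.05. Intervals are 95%. CPM are TMM-scaled; log2 CPM used a prior count of 2. RPKM used exon-union lengths of GENCODE M21, with the longest transcript as an alternative. DESeq2 1.42.0 and limma-voom with quality weights were alternatives, with other filters, normalizations, sample sets and left-out libraries. The test was checked on simulated data. The numbers of replicates come from accession order and pair nothing. Members, gene lists and tests were chosen with earlier results of these data known. From each list, up to 4 genes that passed with the smallest p were named, or the 1 with the smallest p; genes like Bcl6 are the 5 of highest Pearson r. Some genes that these rules name are not reported here. Promoter sequences are from RefSeq. Libraries with more than 1000 Xist counts were taken as coming from female mice. These were KO cohort WT 1 and 3, KO 1, RH cohort WT 3, RH HET 4, and RH HOMO 1 and 3. Sex taken in this way was thus not balanced between the groups compared. With a sex term, edgeR gave -0.32 for Tbl1xr1 in KO (adjusted p = 0.106) and -0.25 for Hdac7 in RH HOMO (adjusted p = 0.205).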

Additional observations from a re-analysis of the deposited data

Results flagged for a closer look

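Mef2b, which encodes an activator of Bcl6 transcription, differed between the homozygous knock-in's effect and the knockout's effect by -0.82 on the log2 scale in the test of the interaction (± 0.16, adjusted p = 0.0408, edgeR). Its level was 359.5 ± 36.5 CPM in RH cohort WT and 242.1 ± 12.4 in RH HOMO, and 248.1 ± 16.2 in KO cohort WT and 294.9 ± 40.4 in KO (SD, n = 3 each). The wild types themselves differed by 0.53 (adjusted p = 0.0192). Leaving out 1 of the 12 libraries at a time gave -0.91 to -0.72, with the call lost in 9 of the 12. Dixon's test was run only on the 4 RH HET libraries and flagged none of them for the 11 genes checked. The groups with n = 3, RH HOMO among them, were not checked. With only 4 values the test can flag little, so it does not show that no library stood apart.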

How the results depend on the processing

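For the 9 members, 1071 differences were recomputed under alternatives. Of these, 1013 kept their side of the threshold with a similar value, 42 moved, 16 were now called and 0 reversed. Of all 1071, 90 changed sign without being called. The largest main difference among those was Hdac9 between the wild types, -0.45 in the main test and 0.05 with a mitochondrial share term. Of 238 counts of called members, 225 were as before. In KO, 1 member was lower, Tbl1xr1, with DESeq2, limma-voom, only the libraries compared, a mitochondrial share term, and without both RH cohort WT 1 and RH HOMO 2. In the effect difference 1 was higher with limma-voom. Between the wild types, the lower members were 1 with no count filter, 1 with DESeq2, 3 with limma-voom, 1 at an adjusted p under 0.1, 2 with only the libraries compared and 1 without both libraries; leaving out 1 library gave 0 to 1, the 1 being Hdac9 without RH cohort WT 3 (-0.62, adjusted p = 0.0359, edgeR). Counts over all tested genes ran wider. In KO, 95 rose and 121 fell, against 477 and 467 with limma-voom and 18 to 40 and 18 to 47 on leaving out a library. In RH HET, 2 rose and 1 fell, against 127 and 117 with limma-voom. In RH HOMO, 96 rose and 165 fell, against 535 and 585 with limma-voom 0 and 0 with only the libraries compared, and 34 to 101 and 81 to 157 on leaving out a library. For RH HOMO against RH HET the counts were 0 and 0, with at most 44 (limma-voom) and 96 (DESeq2). For the effect difference they were 13 and 27, with 315 and 330 by limma-voom 3 and 7 with only the libraries compared, and 1 to 22 and 5 to 45 on leaving out a library. For the wild types they were 527 and 313, with 2232 and 2125 by limma-voom, 0 higher with a mitochondrial share term, 0 lower with the conflicting library in the KO cohort, and 1 to 1119 and 2 to 749 on leaving out a library. No paired analysis was possible because the replicate numbers follow accession order and no label pairs libraries. Each member had at least 2418 counts in every library; whether more libraries would change the calls was not tested.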
